A study of Homo sapiens with 6 samples.

Results

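The HOX genes of the HOXA, HOXB, HOXC and HOXD clusters were examined in TOP3B knockout (KO) and wild-type (WT) HT1080 cells. Members were the rows of the expression tables whose symbol is HOX followed by a cluster letter and a number, which gave 27 of 35820 genes, with 11 in HOXA, 6 in HOXB, 5 in HOXC and 5 in HOXD. The other human HOX genes were not analysed here, so each sum or share by cluster or paralog group covers these 27 genes alone. Total RNA depleted of ribosomal RNA was sequenced in 3 KO and 3 WT libraries of HT1080, a human fibrosarcoma line, and the stated aim was to learn how TOP3B, a topoisomerase that acts on DNA and RNA, shapes R-loops and transcription. The KO cells were the E2-2 line, made by CRISPR with a guide against exon 2 of TOP3B, and the WT cells carried no edit; both genotypes were grown in the same serum-containing medium with no other treatment. The KO group is therefore a single line set against WT cells. Nothing in the labels states that replicates were grown as separate cultures, and every p-value below is therefore set against a spread between libraries that could be technical. The series text names HCT116, a colon carcinoma line, once for the WT cells, whereas every sample label names HT1080.

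HOX genes encode homeodomain transcription factors that give cells along the body axis their positional identity. Within a cluster the genes lie in the order in which they are used, with low-numbered paralog groups at the 3′ end acting toward the head and high-numbered groups at the 5′ end acting toward the tail and in the distal limb. Genes of the same number in different clusters are paralogs. Polycomb complexes keep HOX genes silent, trithorax complexes keep them active, and cultured fibroblasts are known to retain a HOX pattern that reflects the site they came from.

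The library totals lay between 17919106 and 20475280 estimated counts. KO replicate 3 stood apart. Over genes above a mean log2 CPM (count scaled to library size) of 4, the SD of log2 differences was 0.623 and 0.599 between KO replicate 3 and KO replicates 1 and 2, against 0.238 between KO replicates 1 and 2 and 0.268 to 0.327 among the WT libraries. Against the WT libraries it was 0.454 to 0.489 for KO replicates 1 and 2 and 0.682 to 0.734 for KO replicate 3. KO replicate 3 was thus farther from the other KO libraries than those were from WT. TOP3B itself had 407, 383 and 361 counts in KO libraries and 536, 376 and 469 in WT libraries. The transcript was not called as changed (log2 fold change -0.33 ± 0.19 SE, edgeR quasi-likelihood adjusted p = 0.342), and since an exon edit need not remove a transcript these counts do not check the labels. Of 12 colon epithelial markers with a row, 7 lay under 1 CPM in all 6 libraries, including CDX2 and KRT20, which were listed at 0 throughout. The summed level of the 12, most of it KRT8, was 112 to 136 CPM in KO and 109 to 121 CPM in WT libraries. The 11 mesenchymal markers summed to 13979 to 15283.5 CPM in KO and 22594.4 to 23965.8 CPM in WT libraries. Nearly all of this sum was VIM and FN1, and 4 of the 11 lay under 1 CPM in every library. Of the 11, VIM averaged 11524.6 ± 173 CPM in KO and 11666.2 ± 594 CPM in WT libraries (SD, n = 3 each), while FN1 averaged 3174.1 ± 614 CPM in KO and 11747.9 ± 769 CPM in WT libraries. FN1, COL1A1 and COL5A1 were called lower in KO by edgeR, and none was called higher. That is 3 of the 7 mesenchymal markers tested (42.9%, beside 4.63% of all genes lower). The part of this marker difference in the HOX values was not tested. In bulk RNA, fewer expressing cells and less RNA per cell cannot be told apart.

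Of the 27 HOX genes, 26 had at least 1 count in some library and HOXA11 was listed at 0 in all 6. A listed 0 says little here, because NFE2L2, a broadly expressed transcription factor gene on the flank of the HOXD cluster, was also listed at 0 in 5 of 6 libraries; this gene was singled out after its values were seen. In all, 17 HOX genes passed the filter on low counts and were tested among 13965 genes. The other 10, HOXA2, HOXA5, HOXA7, HOXA11, HOXA13, HOXB1, HOXB7, HOXC11, HOXD3 and HOXD12, reached at most 23 counts in any library, which was HOXB7 in WT replicate 2.

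HOXD10 was the single HOX gene called, and its promoter window is shown first beside those of HOXD11 and HOXD8, the other HOXD genes tested. Each is the 250 bases before the RefSeq start on GRCh38.p14, 5′ to 3′ on the gene's own plus strand. HOXD10 is at chr2:176116528-176116777, HOXD11 at chr2:176107030-176107279 and HOXD8 at chr2:176129455-176129704. The HOXD10 and HOXD11 windows lie inside the annotated spans given below for these genes, which begin farther 5′. Capitals mark matches on either strand to 4 searched motifs, namely CACGTG (the E-box), TATAAA (the TATA box), CCAAT (the CCAAT box) and TGATTNAT (a PBX-HOX motif). No matches overlapped in these 3 windows.
HOXD10: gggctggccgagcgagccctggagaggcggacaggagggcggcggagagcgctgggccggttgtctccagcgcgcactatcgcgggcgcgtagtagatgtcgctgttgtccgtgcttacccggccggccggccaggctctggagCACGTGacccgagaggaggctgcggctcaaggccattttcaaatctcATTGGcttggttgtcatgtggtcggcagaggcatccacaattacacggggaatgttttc
HOXD11: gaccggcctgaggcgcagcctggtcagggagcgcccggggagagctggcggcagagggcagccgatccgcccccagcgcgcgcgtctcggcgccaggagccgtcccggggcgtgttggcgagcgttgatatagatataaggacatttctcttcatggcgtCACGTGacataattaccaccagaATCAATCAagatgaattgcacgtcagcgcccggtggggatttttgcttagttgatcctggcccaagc
HOXD8: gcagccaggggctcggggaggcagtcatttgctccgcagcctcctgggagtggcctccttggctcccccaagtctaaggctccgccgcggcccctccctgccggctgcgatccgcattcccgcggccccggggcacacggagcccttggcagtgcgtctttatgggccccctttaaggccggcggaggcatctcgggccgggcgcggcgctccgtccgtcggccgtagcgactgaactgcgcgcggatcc

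HOXD10 and HOXD11 each held a single CACGTG, beginning 106 bases before the HOXD10 start and 90 bases before the HOXD11 start, and HOXD8 held no match to any searched motif. HOXD10 also held a CCAAT match and HOXD11 a PBX-HOX match. CACGTG stood in 6.34% of all 35116 promoter windows of this length and in 6 of 23 HOX windows, including those of HOXD3, HOXA3, HOXA4 and HOXA9. The 23 windows came from 16 of the 27 HOX genes, with several for HOXA3. HOXB2, HOXB3, HOXB6, HOXB8, HOXC6, HOXC9 and HOXC10 were among those without a window. TATAAA stood in 10.7% of all windows and 4 HOX windows, CCAAT in 32% and 14, and TGATTNAT in 2.48% and 2. GC content was 64% for HOXD10, 61.6% for HOXD11 and 72.4% for HOXD8, against a median of 58% over all windows. These matches describe the sequence and are not evidence of binding.

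HT1080 cells carried a mixed HOX pattern that spanned the axis. By count, central genes (paralog groups 4 to 8) made up 40.6% ± 5.04 of HOX counts in KO libraries and 41.6% ± 2.10 in WT libraries (SD, n = 3 each). Posterior genes (groups 9 to 13) made up 35.1% ± 6.65 in KO and 37.1% ± 0.358 in WT libraries, and anterior genes (groups 1 to 3) 24.3% ± 8.42 in KO and 21.3% ± 1.79 in WT libraries. None of these 3 differences exceeded the SD of the KO libraries. All HOX genes together had 3014, 3075 and 3056 counts in KO libraries and 3377, 3208 and 3271 in WT libraries, or 153 ± 4.31 CPM in KO and 172 ± 17.7 CPM in WT.

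**Figure D1:**
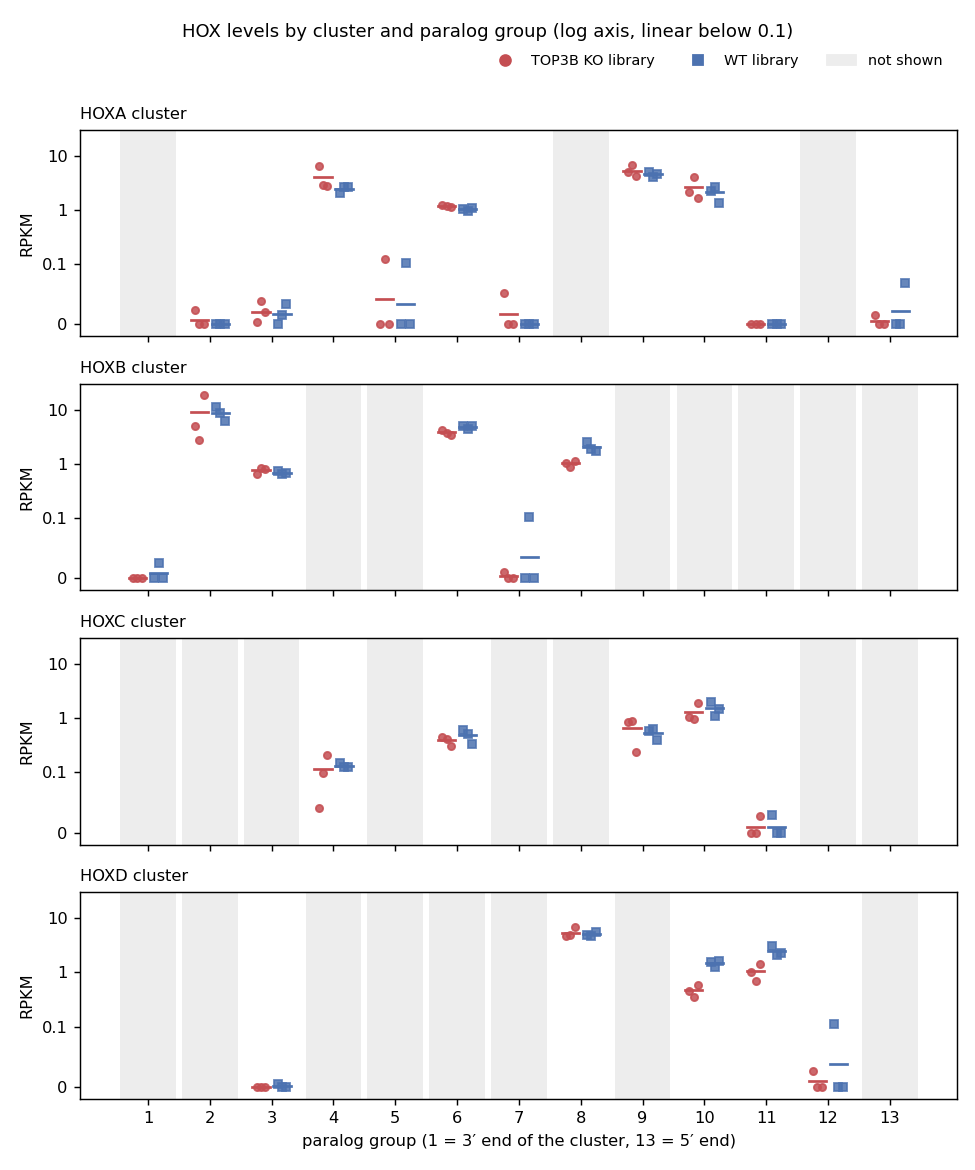
Deposited RPKM of each HOX gene (log axis, linear below 0.1) by paralog group, with a panel for each cluster. Points are libraries (TOP3B KO red circles left, WT blue squares right), lines are group means, and shaded positions are not shown; HOXD10 and HOXD11 are the 5′ genes whose KO points lie below all WT points.

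Paralog groups 2 and 8 had the highest mean summed levels in both genotypes on the deposited scale of reads scaled for gene length and library size (RPKM). Paralog group 2, almost wholly HOXB2, summed to 8.94 ± 8.67 RPKM in KO and 8.65 ± 2.36 RPKM in WT libraries. Its place in KO rested on KO replicate 3, where HOXB2 had 18.9 RPKM against 5.10 and 2.83 RPKM in KO replicates 1 and 2. Group 8 (HOXB8 and HOXD8) summed to 6.44 ± 1.31 RPKM in KO and 7.12 ± 0.461 RPKM in WT. On the RPKM scale the group with the plainest separation was 11, nearly all HOXD11, at 1.06 ± 0.388 RPKM in KO and 2.47 ± 0.541 RPKM in WT. Groups 5, 7, 12 and 13 averaged under 0.05 RPKM in both. These groups were represented only by HOXA5, by HOXA7 and HOXB7, by HOXD12 and by HOXA13, so their other paralogs are not covered. Per kb of annotated exon the order turned. Group 6 then led with 14.8 ± 1.93 CPM per kb of exon in KO and 18.1 ± 1.17 in WT, followed by group 9 with 12.0 ± 3.66 in KO and 10.5 ± 0.899 in WT, both above group 2 with 6.71 ± 6.30 in KO and 6.89 ± 1.92 in WT.

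In WT libraries HOXB2 was highest at 8.65 ± 2.36 RPKM, with all 3 libraries above those of HOXD8 (5.09 ± 0.398 RPKM). HOXD8, HOXB6 and HOXA9 then overlapped, and all 3 lay above HOXD11 at 2.46 ± 0.525 RPKM, which ranked 5 of 16. In KO libraries HOXB2 ranked first too, but its libraries ran from 2.83 to 18.9 RPKM and overlapped those of HOXD8, HOXA9, HOXA4, HOXB6 and HOXA10. HOXD11 ranked 10 in KO libraries against 5 in WT, and HOXD10 ranked 14 in KO against 10 in WT.

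These ranks depend on gene length. The length implied by the deposited counts and RPKM was 22637 bases for HOXC6, whose annotated exons cover 3540 bases, and 8074 bases for HOXD10, whose exons cover 2692. Dividing CPM by exon length put HOXA9 first in KO (9.49 ± 2.45 CPM per kb of exon) and HOXB6 first in WT (11.9 ± 0.679 CPM per kb of exon). HOXC6 moved from rank 15 to 8 in KO and from 15 to 7 in WT. Across the 16 genes above 1 CPM in a group, Spearman's rho between both scales was 0.70 in KO and 0.69 in WT, as a description, since both use the same counts.

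**Figure D2:**
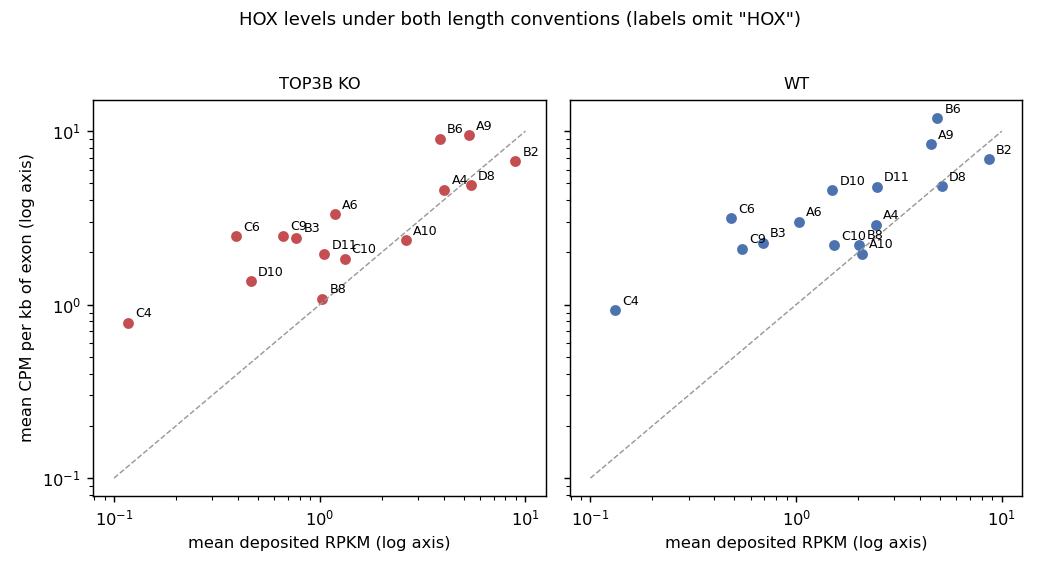
Mean level of the HOX genes reported on the deposited RPKM scale (x) and as CPM per kb of annotated exon (y), both log axes, in TOP3B KO (left) and WT (right); the dashed line marks equal values. HOXC4 and HOXC6 lie far above the line and HOXB2 slightly below it.

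Among the 17 tested HOX genes 1, HOXD10, was lower in KO and none was higher (edgeR quasi-likelihood test, adjusted p under 0.05). That is 5.88% lower, beside a background of 4.63% lower and 3.21% higher over all genes tested, or 7.84% in either direction, so the share of HOX genes called was near the background. At an unadjusted p under 0.05, 4 HOX genes were lower (HOXD10, HOXD11, HOXB8 and HOXB6) and 0 higher, or 23.5%. Of all 13965 genes, 1788 were lower and 1664 higher at that level, or 24.7% in either direction. For the same 4 HOX genes every KO library lay below every WT library, beside 17.1% of all genes. DESeq2 called HOXD10, HOXD11 and HOXB8 lower and 0 higher, beside 9.20% lower and 6.57% higher over all genes. Without KO replicate 3, edgeR called 2 HOX genes lower, HOXD10 and HOXD11, beside 7.84% lower and 5.39% higher over all genes. The median log2 fold change of the 17 was -0.04, beside 0.05 for all genes, with 8 above 0 and 9 below.

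**Figure D3:**
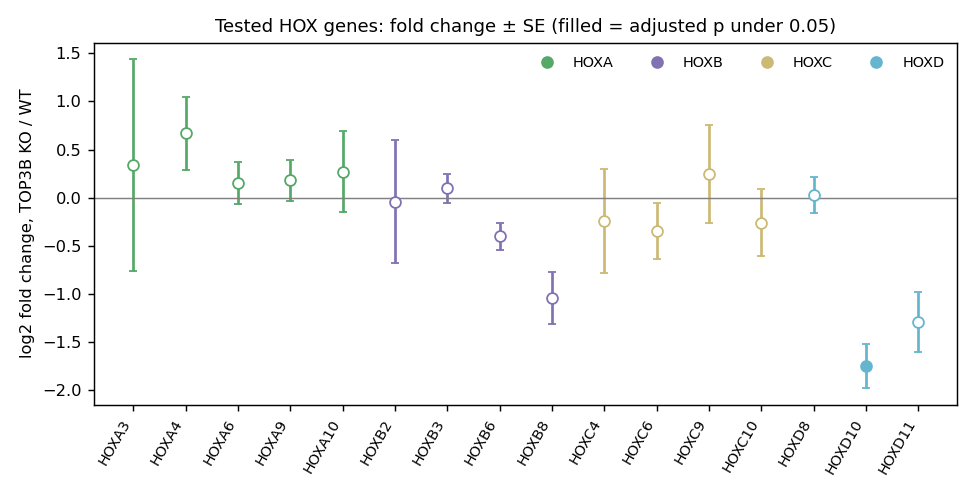
Log2 fold change of TOP3B KO over WT (points) with its standard error (bars) for the tested HOX genes reported, coloured by cluster and ordered by paralog group within it. The filled point is HOXD10 at -1.75, the only one past the adjusted threshold; HOXD8 sits at 0.03.

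The HOXD genes pattern the limb and the posterior axis, and in mice HOXD10 and HOXD11 act in limb and lumbosacral patterning. HOXD10 (plus strand, 2:176108790-176119942 in GENCODE v29 on GRCh38) had 74, 58 and 87 counts in KO libraries and 229, 209 and 272 in WT libraries. The groups were far apart, with the highest KO library below the lowest WT library. Its level was 3.67 ± 0.766 CPM in KO and 12.3 ± 1.52 CPM in WT (SD, n = 3 each), which was 3.36-fold lower (log2 fold change -1.75 ± 0.23 SE, edgeR adjusted p = 0.00978). The call was lost without WT replicate 1 (-1.72, adjusted p = 0.0510) or WT replicate 3 (-1.69, adjusted p = 0.0519), and over all alternatives the adjusted p ranged from 4.79e-09 to 0.0519.

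HOXD11, its 5′ neighbour (plus strand, 2:176104216-176109754), had 84, 55 and 106 counts in KO libraries and 219, 168 and 187 in WT libraries. The groups did not overlap here either. Its level was 4.11 ± 1.33 CPM in KO and 10.1 ± 2.11 CPM in WT, and the log2 fold change of -1.29 ± 0.31 missed the threshold (edgeR adjusted p = 0.0512, range 0.00241 to 0.158 over the alternatives). Without KO replicate 3 it was called (-1.55, adjusted p = 0.0216). HOXD10 and HOXD11 share exon bases on the same strand, so how reads were divided between them is uncertain.

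HOXD8 (plus strand, 2:176129694-176132695), a central gene on the 3′ side of HOXD10 with no overlapping annotated exon, gave no such difference. It had 227, 233 and 307 counts in KO libraries and 218, 236 and 275 in WT libraries, with overlapping groups. Its log2 fold change was 0.03 ± 0.19 (edgeR adjusted p = 0.946). The count ratio of HOXD10 to HOXD8 was 0.326, 0.249 and 0.283 in KO libraries and 1.05, 0.886 and 0.989 in WT libraries. For HOXD11 to HOXD8 it was 0.370, 0.236 and 0.345 in KO and 1.00, 0.712 and 0.680 in WT. Both ratios separated the groups completely, but these pairs were chosen after the values were seen and 3 against 3 libraries cannot give less than 0.1 (exact permutation test, two-sided, p = 0.1 each, adjusted p = 0.1 over 3 ratios).

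The HOXD share of all HOX counts was 12.8%, 11.3% and 16.4% in KO libraries and 19.9%, 19.1% and 22.4% in WT libraries. The groups did not overlap and the means, 13.5% ± 2.62 in KO and 20.5% ± 1.75 in WT, differed by more than either SD. No other cluster share separated the groups. HOXD3 and HOXD12 had at most 4 counts in any library.

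**Figure D4:**
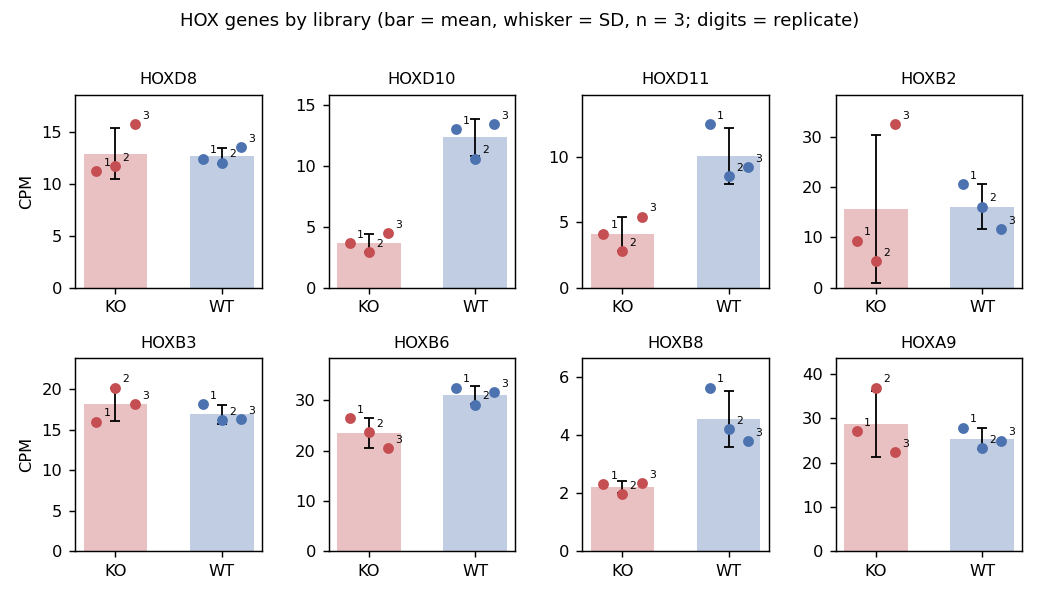
CPM of 8 HOX genes in each library (points, digits give the replicate), with the mean as a bar from 0 and the SD as a whisker (n = 3), TOP3B KO left and WT right. KO and WT points do not overlap for HOXD10, HOXD11, HOXB6 and HOXB8, and HOXB2 in KO replicate 3 lies far above the other KO libraries.

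The HOXB cluster made up 36.6%, 32.9% and 47.1% of HOX counts in KO libraries and 39.9%, 41.1% and 39.3% in WT libraries. It held the largest share in every WT library, whereas in KO it did so only in replicate 3, and HOXA led in KO replicates 1 and 2. HOXB8, which in mice restrains differentiation of myeloid progenitors when overexpressed, had 47, 39 and 46 counts in KO libraries and 99, 83 and 77 in WT libraries. All KO libraries were lower than all WT libraries. Its log2 fold change of -1.04 ± 0.27 missed the threshold (edgeR adjusted p = 0.0698, range 0.0182 to 0.203 over the alternatives). No annotated exon overlaps HOXB8 (minus strand, 17:48611377-48614939).

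HOXB6, a central gene, had 539, 469 and 401 counts in KO libraries and 570, 573 and 642 in WT libraries. These groups did not overlap, and the log2 fold change was -0.40 ± 0.14 (edgeR adjusted p = 0.147). HOXB3, whose exons overlap those of HOXB6 on the same strand, had 325, 402 and 356 counts in KO and 319, 319 and 332 in WT libraries, with a log2 fold change of 0.10 ± 0.15 (edgeR adjusted p = 0.711). The count ratio of HOXB8 to HOXB6 was 0.0950 ± 0.0172 in KO and 0.146 ± 0.0269 in WT (exact permutation p = 0.1, adjusted p = 0.1). Both genes were already among those lower in KO, and 3 against 3 libraries cannot give less than 0.1. The groups nearly touched, at 0.115 in KO replicate 3 and 0.120 in WT replicate 3.

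HOXB2, an anterior gene that in mice patterns the hindbrain, had the widest spread in CPM within a genotype, at 15.7 ± 14.7 CPM in KO and 16.1 ± 4.47 CPM in WT libraries. It had 189, 103 and 635 counts in KO libraries and 361, 318 and 236 in WT libraries. KO replicates 1 and 2 lay below all WT libraries and KO replicate 3 above them, so the log2 fold change was -0.04 ± 0.64 (edgeR adjusted p = 0.975). Without KO replicate 3 it was -1.16 (adjusted p = 0.0825). HOXB-AS1 overlaps HOXB2 on the other strand.

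The HOXA cluster held 37.2%, 42.7% and 25.1% of HOX counts in KO libraries and 26.0%, 26.0% and 27.5% in WT libraries. KO replicate 3 fell below the WT libraries and the other KO libraries above them. None of its 6 tested genes passed the test in either direction, at an unadjusted p under 0.05 or with DESeq2 either. HOXA9, which is active in blood stem cells and in leukaemia, had the most counts, with 550, 732 and 436 in KO libraries and 490, 459 and 507 in WT libraries, and its groups overlapped (log2 fold change 0.18 ± 0.21).

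HOXA10, which acts in uterine development and blood formation, had 147, 273 and 103 counts in KO libraries and 137, 184 and 94 in WT libraries. HOXA4 had 264, 116 and 103 counts in KO and 75, 107 and 110 in WT libraries, and its log2 fold change of 0.67 ± 0.38 (edgeR adjusted p = 0.328) leant on KO replicate 1. The spread within KO was thus larger than the difference for both genes. HOXA6, a central gene, had 92, 87 and 76 counts in KO and 69, 71 and 82 in WT libraries. HOXA3 had 3, 20 and 10 counts in KO and 0, 8 and 18 in WT libraries. HOXA9, HOXA10, HOXA4, HOXA6 and HOXA3 all share exon bases with other annotated genes.

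The HOXC cluster made up 12.7% ± 1.01 of HOX counts in KO and 12.9% ± 1.88 in WT libraries. None of its 4 tested genes passed the test, at an unadjusted p under 0.05 or with DESeq2 either. HOXC6 had 207, 189 and 128 counts in KO libraries and 242, 238 and 154 in WT libraries. HOXC10 had 72, 64 and 119 counts in KO and 117, 76 and 99 in WT libraries. Both overlapped between genotypes. HOXC9 had 109, 113 and 29 counts in KO and 67, 83 and 52 in WT libraries, and HOXC4 had 16, 37 and 74 counts in KO and 50, 48 and 47 in WT libraries. KO replicate 3 was the lowest KO library for HOXC9 and the highest for HOXC4. HOXC4, HOXC6 and HOXC9 share exon bases.

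The non-coding RNAs of the clusters gave 1 call, higher, among 6 tested of 17 with a row (16.7%, beside 3.21% of all genes). At an unadjusted p under 0.05, 2 were higher and 1 lower, beside 24.7% of all genes in either direction. DESeq2 called 1 each way, beside 6.57% higher and 9.20% lower over all genes. HOXC13-AS had 158, 170 and 166 counts in KO libraries and 74, 62 and 68 in WT libraries, far from overlapping, and was 2.32-fold higher (8.28 ± 0.437 CPM in KO and 3.57 ± 0.569 CPM in WT, log2 fold change 1.21 ± 0.22 SE, edgeR adjusted p = 0.0222). With 1 library left out, it stayed called in 1 of 6 fits, the one without KO replicate 3, and its adjusted p over all alternatives reached 0.0966. HOXA10-AS had 192, 195 and 132 counts in KO libraries and 247, 258 and 276 in WT libraries (log2 fold change -0.65 ± 0.20, edgeR adjusted p = 0.0988). HOTAIRM1 had 216, 202 and 197 counts in KO and 113, 154 and 160 in WT libraries (0.48 ± 0.18, edgeR adjusted p = 0.152). Both were named after their values were seen. HOTAIR, the antisense RNA of the HOXC cluster linked to Polycomb, had 0 counts in KO libraries and 1, 1 and 0 in WT libraries. HOTTIP, at the 5′ end of HOXA, had 16, 5 and 0 counts in KO and 2, 0 and 1 in WT libraries.

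HOX proteins bind DNA with TALE homeodomain cofactors. Of 7 tested cofactor genes none was called by edgeR, beside 7.84% of all genes in either direction. At an unadjusted p under 0.05, 1 was lower, beside 24.7% of all genes in either direction. DESeq2 called 1 lower, beside 9.20% lower over all genes. That gene was MEIS3, named after its values were seen, with 91, 114 and 70 counts in KO libraries and 154, 165 and 158 in WT libraries (edgeR adjusted p = 0.0799). The most abundant were MEIS2, at 70.9 ± 7.93 CPM in KO and 69.2 ± 3.40 CPM in WT libraries, and PBX3, at 44.8 ± 6.44 CPM in KO and 39.2 ± 2.92 CPM in WT libraries.

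Of 36 tested chromatin regulators of HOX clusters 4 were higher (11.1%, beside 3.21% of all genes) and 1 lower (2.78%, beside 4.63%), and the list's median was 0.06 on the log2 scale, beside 0.05 for all genes. The 4 were Polycomb genes, among 24 tested. EZH1 and EZH2, the catalytic subunits of Polycomb repressive complex 2, averaged 21.7 ± 1.52 CPM in KO and 12.3 ± 0.299 CPM in WT libraries (EZH1, log2 fold change 0.82 ± 0.14, edgeR adjusted p = 0.0186) and 126 ± 11.6 CPM in KO and 81.3 ± 7.18 CPM in WT libraries (EZH2, 0.63 ± 0.12, edgeR adjusted p = 0.0243). RBBP4 (0.50) and RBBP7 (0.37), histone-binding subunits, were the others, named after their values were seen. RBBP5, a core subunit of trithorax-type methyltransferases, was the one lower gene, at 23.1 ± 3.77 CPM in KO and 39.3 ± 5.03 CPM in WT libraries (-0.77 ± 0.17, edgeR adjusted p = 0.0425). With 1 library left out, EZH1, EZH2 and RBBP5 each stayed called in 1 of 6 fits, the one without KO replicate 3.

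Of 7 tested upstream regulators none was called by edgeR, beside 7.84% of all genes in either direction. At an unadjusted p under 0.05, 1 was higher and 1 lower, beside 24.7% of all genes in either direction. DESeq2 called 1 each way, beside 6.57% higher and 9.20% lower over all genes. The most abundant, both retinoic acid pathway receptors, were RARA, at 100 ± 10.5 CPM in KO and 119 ± 10.6 CPM in WT libraries, and RXRB, at 45.3 ± 3.71 CPM in KO and 56.6 ± 2.12 CPM in WT libraries. RXRB was also the lower gene (edgeR adjusted p = 0.140, DESeq2 adjusted p = 0.0468). ALDH1A3, an enzyme that makes retinoic acid, named after its values were seen, had 520, 442 and 887 counts in KO libraries and 141, 199 and 31 in WT libraries (edgeR adjusted p = 0.0833).

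The genes around the clusters gave few calls. Of 26 tested flanking genes 1 was lower (3.85%, beside 4.63% of all genes). It was NFE2L1, a transcription factor gene beside HOXB, at 908 ± 30.2 CPM in KO and 1161 ± 23.9 CPM in WT libraries (-0.35 ± 0.07, edgeR adjusted p = 0.0248). Its adjusted p reached 0.109 over the alternatives, and with 1 library left out it stayed called in 1 of 6 fits, the one without KO replicate 3. Within 1 Mb of the HOXD cluster, 5 genes outside the HOX set were tested and none was called by edgeR. Their median log2 fold change was -0.15, beside 0.08 for the 898 tested genes of chromosome 2. All 5 genes of the list on the HOXD side had an unadjusted p above 0.05 and none was called by DESeq2. Among 32 other tested homeobox genes 1 was higher and 1 lower (3.12% each, beside 3.21% higher and 4.63% lower of all genes). The higher gene was LHX1 (0.61 ± 0.12, edgeR adjusted p = 0.0337, range 0.000271 to 0.134 over the alternatives) and the lower gene CUX1 (-0.35 ± 0.08, edgeR adjusted p = 0.0476, range 0.00142 to 0.256). With 1 library left out, both calls stayed in the same 1 of 6 fits, without KO replicate 3.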

How the data were processed

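Ribosomal RNA was depleted from total RNA and directional paired-end libraries were sequenced, per the labels' protocols. The authors deposited a table of estimated counts, rounded to whole numbers, and a table of RPKM values. Salmon 1.10.1 and hg19 appear in the submitters' processing notes, while their roles and the strand setting of counting are not given in the sources used here. For its length, the deposited RPKM implies a value within 3% of the genomic span averaged over a gene's transcripts for 68.0% of 7955 genes with at least 100 counts in every library, so CPM per kb of merged exon was computed beside it. Positions are from GENCODE 29 on GRCh38 and promoter windows from RefSeq on GRCh38.p14; no hg19 coordinate is used. 1 gene named differently in the tables was left out.

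Genes passing filterByExpr (13965) were tested with edgeR 4.0.16 in R 4.3.3 (TMM scaling, quasi-likelihood F test, 4 residual degrees of freedom) on all 6 libraries, with Benjamini-Hochberg adjustment over all of them and a threshold of 0.05; standard errors come from the F statistic. CPM uses TMM-scaled library sizes. The fits were tested on simulated data. The alternatives were DESeq2 1.42.0, limma 3.58.1 (voom, and trend on log2(RPKM + 1) or log2(RPKM + 0.1)), DESeq2 size factors, library size alone, no filter, a filter of 1 CPM in 3 libraries, and each library left out. KO replicate numbers follow accession order. HOX genes with at least 1 CPM in a group were given by library; of other lists, at most 2 called genes per direction, or the 2 most abundant where none was called. 1 tested HOX gene is counted in the totals but not reported here. The members and lists were chosen with earlier results of these data known.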

Additional observations from a re-analysis of the deposited data

How the results depend on the processing

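No paired analysis was possible because the KO labels carry no replicate numbers. Across 237 refits of single HOX genes, 227 kept their side of the threshold, 8 gained a call, 2 lost one (HOXD10 without WT replicate 1 or 3), and no called value changed sign. The number of HOX genes called lower, 1 in the main test, was 3 with DESeq2, 2 with voom, both RPKM pseudocounts, DESeq2 size factors or the 1 CPM filter, and 0 to 2 with a library left out. All genes called higher numbered 448, or 916 with DESeq2 and 87 to 774 with a library left out; lower, 647, or 1283 and 136 to 1125. Among the fits with a library left out, the most calls came without KO replicate 3. Calls among HOX non-coding RNAs numbered 1, or 2 with DESeq2 or RPKM and 0 to 1 with a library left out. Cofactors had 0, or 1 with DESeq2 and 0 to 1 with a library left out. Chromatin regulators had 5, or 8 with DESeq2, 3 without a filter and 0 to 6 with a library left out. Upstream regulators had 0, or 2 with DESeq2 and 0 to 2 with a library left out. Flanking genes had 1, or 5 with DESeq2, 2 with voom or the 1 CPM filter, and 0 to 3 with a library left out. Other homeobox genes had 2, or 6 with DESeq2, 1 with library size alone, 0 without a filter and 0 to 5 with a library left out. HOXB6 ranked 5 in KO and 3 in WT by RPKM, and 2 in KO and 1 in WT per kb of exon. KO minus WT differences in cluster share moved by less than the larger of the 2 groups' SDs, but that SD was wide. HOXA, 8.50 percentage points, became 13.5 without KO replicate 3 and 4.65 without KO replicate 2. HOXB (-1.25) and HOXC (-0.253) turned sign with some libraries left out (HOXB to 1.71, HOXC up to 0.360). HOXD (-7.00) kept its sign (-8.44 to -5.89 with a library left out). As shares of summed RPKM the differences were 10.3 for HOXA, -4.92 for HOXB, -0.156 for HOXC and -5.19 for HOXD. The cause of these shifts was not tested. The precision rests on 3 libraries a group, and HOXD10 had under 100 counts in each KO library.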
